A study of Mus musculus with 6 samples.

Results

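Notch2 is the Notch receptor that splenic B cells depend on to become marginal zone (MZ) B cells, and its transcript was examined here together with the genes that process the receptor, carry its signal to the nucleus and respond to it. The members were taken by name: the receptors Notch1 and Notch2, the glycosyltransferase Mfng, the protease Adam10, the nuclear factors Rbpj and Maml1, and the target genes Dtx1, Hes1, Hes5 and Nrarp. All 10 were found among the 20458 gene names of the deposited table, as 12 of its 25017 entries. RNA sequencing was performed on follicular B cells sorted from C57BL/6 mice, with 3 samples from CD23Cre+Myh9wt/fl mice (wt/fl) and 3 from CD23Cre+Myh9fl/fl mice (fl/fl). Myh9 encodes the heavy chain of non-muscle myosin IIa. Cre was driven by the promoter of Fcer2a, the gene for CD23, which is switched on in splenic transitional and follicular B cells. Both genotypes carried the Cre transgene, and the wt/fl control had a single functional copy of Myh9 in these cells, so no Cre-negative or Myh9 wild-type sample enters the comparison. Cells were gated as B220+AA4.1-CD23+CD21lo, a gate that leaves out MZ B cells, which are CD21 high and CD23 low. Levels are given as FPKM, the number of fragments scaled by the length of the transcript and the number of fragments mapped. The table holds 1 pooled FPKM for each genotype and entry, so there is no spread between samples, no difference has a replicate check, and no test was made.

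Notch receptors are cut by furin on their way to the cell surface and sugars are added to their extracellular part, which fringe enzymes such as Mfng extend. When a Delta or Jagged ligand on a neighboring cell pulls on the receptor, Adam10 cuts it outside the membrane and gamma-secretase cuts it within the membrane. The freed intracellular domain enters the nucleus, binds the DNA-binding protein Rbpj and recruits Mastermind coactivators such as Maml1. In the spleen, Delta-like 1 on stromal cells acts on Notch2 of transitional B cells, and MZ B cells are lost or reduced when Notch2, Rbpj, Mfng, Maml1 or Adam10 is missing or blocked.

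Myh9 was measured at 50.6 FPKM (wt/fl) and 21.1 FPKM (fl/fl), which is 41.7% of the wt/fl level. On the log2 scale, computed throughout as the fl/fl over wt/fl ratio after adding 1 FPKM to each value, the difference was −1.22. The LoxP sites surround exon 3 alone, so the FPKM of Myh9 does not measure the deleted exon by itself. The lower Myh9 value lay on the side that the genotype labels give.

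A gene was called expressed when its mean over both genotypes reached 1 FPKM, and was counted as past 1.5-fold when the ratio reached 1.5 in either direction. Among the 10 members, 1 was past 1.5-fold, Hes5, which was lower in fl/fl cells. Among all 9866 expressed genes, 229 were past 1.5-fold (2.32%), of which 151 were lower in fl/fl (1.53%) and 78 were higher (0.791%). After each genotype was scaled to the same upper quartile, 101 genes were lower and 131 were higher. Upper quartile scaling moved the median log2 ratio of all genes from 0.00 to 0.11, a shift of 0.10. The median log2 ratio of the members was −0.10 as deposited and 0.01 after upper quartile scaling, and its difference from the median of all genes was −0.11 and −0.10 in these cases. As deposited, 7 members were lower in fl/fl and 3 were higher, whereas 5 were lower and 5 higher after upper quartile scaling. Among all expressed genes, 49.5% were lower in fl/fl as deposited. All 10 members were expressed, so none was lost to the filter on low values.

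**Figure D1:**
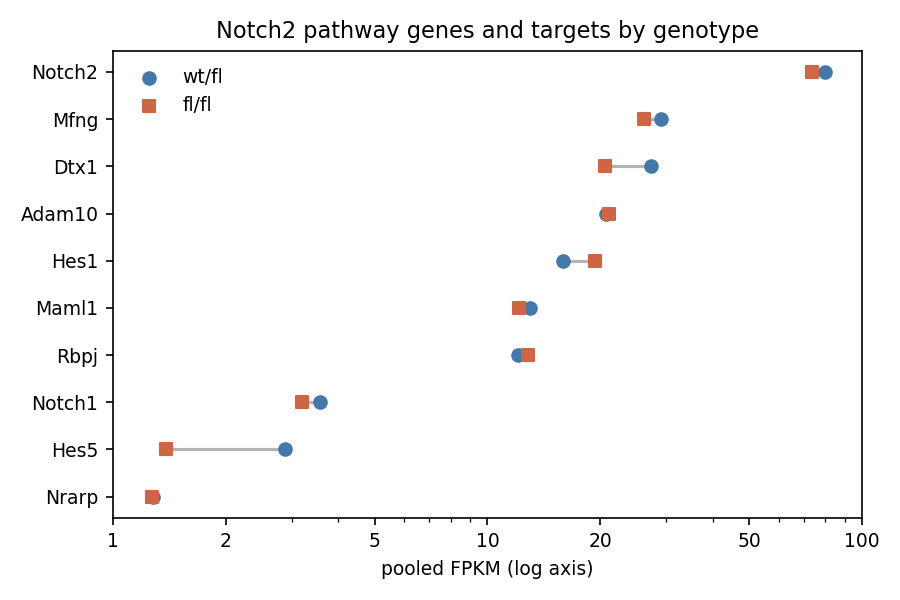
FPKM of the 10 members on a log axis, with a circle for the pooled wt/fl value, a square for the pooled fl/fl value and a line joining them. Notch2 was the most abundant and Nrarp the least abundant in both genotypes, and the widest gap is that of Hes5, at 2.88 FPKM (wt/fl) and 1.38 FPKM (fl/fl).

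The order of the FPKM levels was similar in both genotypes. In wt/fl cells it ran from Notch2 through Mfng, Dtx1, Adam10, Hes1, Maml1, Rbpj, Notch1 and Hes5 to Nrarp. In fl/fl cells Adam10 stood above Dtx1 and Rbpj above Maml1, and the other places were the same. With 1 pooled value for each genotype, it cannot be said which neighbors in this order differ beyond the spread between mice.

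Notch2 transcripts were at 79.7 FPKM (wt/fl) and 73.5 FPKM (fl/fl), a log2 ratio of −0.12. The wt/fl level was above that of 91.9% of the expressed genes. Notch1, the receptor best known for its role in T cell development, was at 3.57 FPKM (wt/fl) and 3.19 FPKM (fl/fl), also a log2 ratio of −0.12. After upper quartile scaling the log2 ratios were −0.00 for Notch2 and −0.04 for Notch1. Of the summed FPKM of these receptors, Notch2 made up 95.7% in wt/fl and 95.8% in fl/fl cells. The remaining receptors were far lower, with Notch3 at 0.0376 FPKM (wt/fl) and 0.0582 FPKM (fl/fl), and Notch4 at 0.220 FPKM and 0.367 FPKM.

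To place a ratio among genes of similar level, each member was ranked among the genes whose mean FPKM, itself 1 or more, was within 2-fold of its own. The log2 ratio of Notch2 was at percentile 17.9 of 1606 such genes, whose 5th and 95th percentiles were −0.26 and 0.25. That of Notch1 was at percentile 31.0 of 2261 genes. The ratios of both receptors thus lay inside the range that holds most genes of like level. These percentiles describe the pooled values and are not tests.

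Ligand transcripts were low in these sorted cells. Dll1, the ligand that acts on Notch2 in the spleen, was at 1.05 FPKM (wt/fl) and 1.02 FPKM (fl/fl). Jag2 was at 0.0845 FPKM and 0.0563 FPKM, Dll4 was at 0.0656 FPKM in wt/fl and listed at 0 in fl/fl, and Jag1 and Dll3 were below 0.1 FPKM in both genotypes. The stromal cells that present ligand in the spleen were not measured.

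Mfng, which extends O-fucose on the receptor and favors its activation by Delta-like ligands, was the second most abundant member, at 29.1 FPKM (wt/fl) and 26.1 FPKM (fl/fl). Its log2 ratio was −0.15, at percentile 13.3 of genes of like level. Of the related fringe enzymes, Lfng was at 11.2 FPKM in both genotypes and Rfng at 6.25 FPKM (wt/fl) and 5.76 FPKM (fl/fl), so that Mfng had the highest FPKM of the fringe genes in either genotype.

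Adam10, the protease that makes the ligand-dependent cut in Notch2, was at 20.7 FPKM (wt/fl) and 21.1 FPKM (fl/fl). The log2 ratio was 0.03, at percentile 55.0 of genes of like level, which is near the middle. Adam17, a related sheddase, was at 37.2 FPKM (wt/fl) and 31.2 FPKM (fl/fl). All 8 genes for glycosylation and ectodomain cleavage were expressed and none was past 1.5-fold. As deposited, their log2 ratios ran from −0.25 for Adam17 to 0.17 for Furin, the enzyme that cuts the receptor during its transport.

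Adam10 leaves the endoplasmic reticulum with the help of tetraspanins of the TspanC8 group. Of these 6 genes, 3 were expressed and none was past 1.5-fold. Tspan14 was the most abundant at 17.6 FPKM (wt/fl) and 17.9 FPKM (fl/fl), followed by Tspan5 at 5.49 FPKM and 6.28 FPKM and Tspan17 at 1.70 FPKM and 2.22 FPKM. Tspan33 was at 0.173 FPKM in wt/fl and listed at 0 in fl/fl.

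Of the 7 genes for gamma-secretase, 5 were expressed and none was past 1.5-fold. Psenen, the smallest subunit, was at 246 FPKM (wt/fl) and 259 FPKM (fl/fl). Psen2, a presenilin and thus a catalytic subunit, was at 30.3 FPKM and 28.2 FPKM, and Ncstn, the nicastrin subunit, was at 25.4 FPKM and 26.1 FPKM. The median log2 ratio of these 5 genes was 0.03.

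Rbpj was listed as 3 entries, which summed to 12.1 FPKM (wt/fl) and 12.8 FPKM (fl/fl). The log2 ratio of the sum was 0.07, at percentile 67.9 of genes of like level. The entries did not all lean the same way. The first was at 5.90 FPKM (wt/fl) and 5.67 FPKM (fl/fl), the second at 6.00 FPKM and 6.90 FPKM, and the third at 0.208 FPKM and 0.237 FPKM. The mouse annotation also lists Rbpj pseudogenes, so fragments may be shared with them and the Rbpj values are uncertain to that extent.

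Maml1, the Mastermind coactivator needed for MZ B cell development, was at 13.0 FPKM (wt/fl) and 12.2 FPKM (fl/fl). Its log2 ratio was −0.09 as deposited and 0.02 after upper quartile scaling, and it was at percentile 27.0 of genes of like level. Maml2 was at 20.4 FPKM and 20.1 FPKM, and Maml3 at 3.94 FPKM and 4.35 FPKM. All 9 genes for nuclear activation were expressed and none was past 1.5-fold. The most abundant were the acetyltransferase genes Ep300, at 67.2 FPKM (wt/fl) and 63.7 FPKM (fl/fl), and Crebbp, at 64.7 FPKM and 66.8 FPKM, and then Snw1, which encodes a nuclear protein that binds the Notch intracellular domain, at 33.5 FPKM and 34.4 FPKM.

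Without the Notch intracellular domain, Rbpj holds corepressors. Of the 16 corepressor genes, 15 were expressed and none was past 1.5-fold, with a median log2 ratio of 0.04. The deacetylase gene Hdac1 was at 102 FPKM (wt/fl) and 115 FPKM (fl/fl), Ncor1 at 64.8 FPKM and 66.2 FPKM, and the demethylase gene Kdm5a at 42.9 FPKM and 44.4 FPKM.

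Dtx1 encodes Deltex1, an E3 ubiquitin ligase that is itself switched on by Notch2 in B cells. It was at 27.3 FPKM (wt/fl) and 20.6 FPKM (fl/fl), which is 75.4% of the wt/fl level and a log2 ratio of −0.39. This did not reach 1.5-fold. Among 3851 genes of like level, whose 5th and 95th percentiles were −0.25 and 0.27, the ratio of Dtx1 was at percentile 1.17. After upper quartile scaling the log2 ratio of Dtx1 was −0.28.

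Hes1, a basic helix-loop-helix repressor and a target shared by many tissues, lay on the other side. It was at 15.9 FPKM (wt/fl) and 19.3 FPKM (fl/fl), a log2 ratio of 0.27. This also did not reach 1.5-fold. The ratio of Hes1 was at percentile 94.5 of 4186 genes of like level, just inside their 95th percentile of 0.28. The FPKM of Dtx1 was 1.72 times that of Hes1 in wt/fl and 1.07 times in fl/fl cells.

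Hes5, a repressor of the same family as Hes1, was at 2.88 FPKM (wt/fl) and 1.38 FPKM (fl/fl), which is 48.0% of the wt/fl level. The log2 ratio of −0.70 corresponds to a 1.63-fold lower value after the addition of 1 FPKM. Hes5 was at percentile 2.29 of 1793 genes of like level, of which 4.41% were past 1.5-fold in the same direction. The FPKM of Hes1 was 5.53 times that of Hes5 in wt/fl and 14.0 times in fl/fl cells. The call on Hes5 rests on a low level. When the mean had to reach 5 FPKM, Hes5 itself was left out and 0 members were past 1.5-fold, against 1.20% of all genes.

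Nrarp encodes an ankyrin-repeat protein that is induced by Notch and dampens its signal. It was at 1.28 FPKM (wt/fl) and 1.27 FPKM (fl/fl), the lowest level of the members. Its log2 ratio was −0.00 as deposited and 0.06 after upper quartile scaling, at percentile 55.4 of 1087 genes of like level. The target members thus did not share a direction: Hes5 and Dtx1 were lower in fl/fl cells, Hes1 was higher and Nrarp was level, while Nrarp moved to the higher side after upper quartile scaling. In these bulk samples, fewer cells that express a target cannot be told apart from less RNA in each cell.

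**Figure D2:**
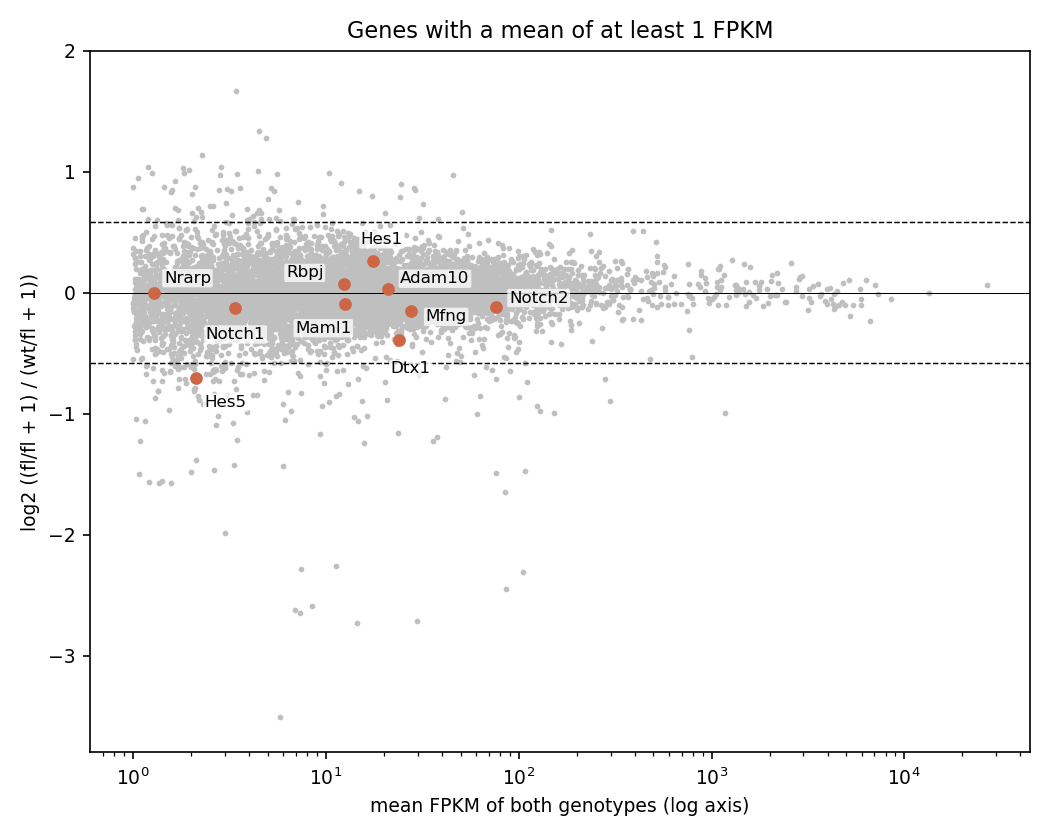
Each gray point is an expressed gene (mean FPKM of 1 or more), by its mean FPKM on a log axis and its log2 ratio of fl/fl over wt/fl after adding 1 FPKM, and the orange points are the 10 members. Dashed lines mark 1.5-fold, and Hes5, at a log2 ratio of −0.70, is the member outside them.

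Other genes that respond to Notch were counted in the same way. Of the 12 target genes, members included, 6 were expressed, and Hes5 was the gene past 1.5-fold. Cr2, which encodes CD21, was at 177 FPKM (wt/fl) and 198 FPKM (fl/fl), and Myc, a target in T cell leukemia, was at 45.7 FPKM and 46.4 FPKM. Hey2 was listed at 0 in both genotypes, and Hes7, Hey1 and Heyl were below 0.1 FPKM in both.

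Regulators of receptor traffic and turnover had the widest range of log2 ratios among the pathway lists apart from the targets. Of 16 genes, 14 were expressed and none was past 1.5-fold. The most abundant were Neurl3, at 134 FPKM (wt/fl) and 130 FPKM (fl/fl), the ubiquitin ligase gene Cbl, at 52.4 FPKM and 54.5 FPKM, and Itch, whose product ubiquitinates Notch, at 39.5 FPKM and 39.3 FPKM. The genes nearest to 1.5-fold, singled out after their values were seen, were Numb and Nedd4. Numb, an inhibitor of Notch, was at 3.05 FPKM (wt/fl) and 1.90 FPKM (fl/fl), a log2 ratio of −0.48. Its 4 entries did not all lean the same way. The entry with the highest mean was at 2.17 FPKM (wt/fl) and 0.615 FPKM (fl/fl), and the others were higher in fl/fl. Nedd4 was at 8.73 FPKM and 12.2 FPKM, a log2 ratio of 0.44.

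Across the pathway lists, 71 genes other than the members were found, 52 of them were expressed, and 0 were past 1.5-fold, against 2.32% of all genes. Their median log2 ratio was 0.03, with 30 genes above 0 and 22 below, and 0.14, with 44 above and 8 below, after upper quartile scaling. Of all expressed genes, 49.5% were below 0 as deposited. The median of all genes was 0.00 as deposited and 0.11 after upper quartile scaling, so that scaling moved all genes upward along with these. The count of 0 did not hold in every setting. With a pseudocount of 0.1 FPKM or with none, Numb and Dtx4 were past 1.5-fold, against 4.20% and 4.56% of all genes. When the entry with the highest mean was used in place of the sum, Numb and Ctbp1 were, against 3.07% of all genes. That entry of Ctbp1 was at 19.6 FPKM (wt/fl) and 11.7 FPKM (fl/fl), while its other entries were higher in fl/fl. The sum for Ctbp1 was nearly level, at 32.9 FPKM and 32.6 FPKM.

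**Figure D3:**
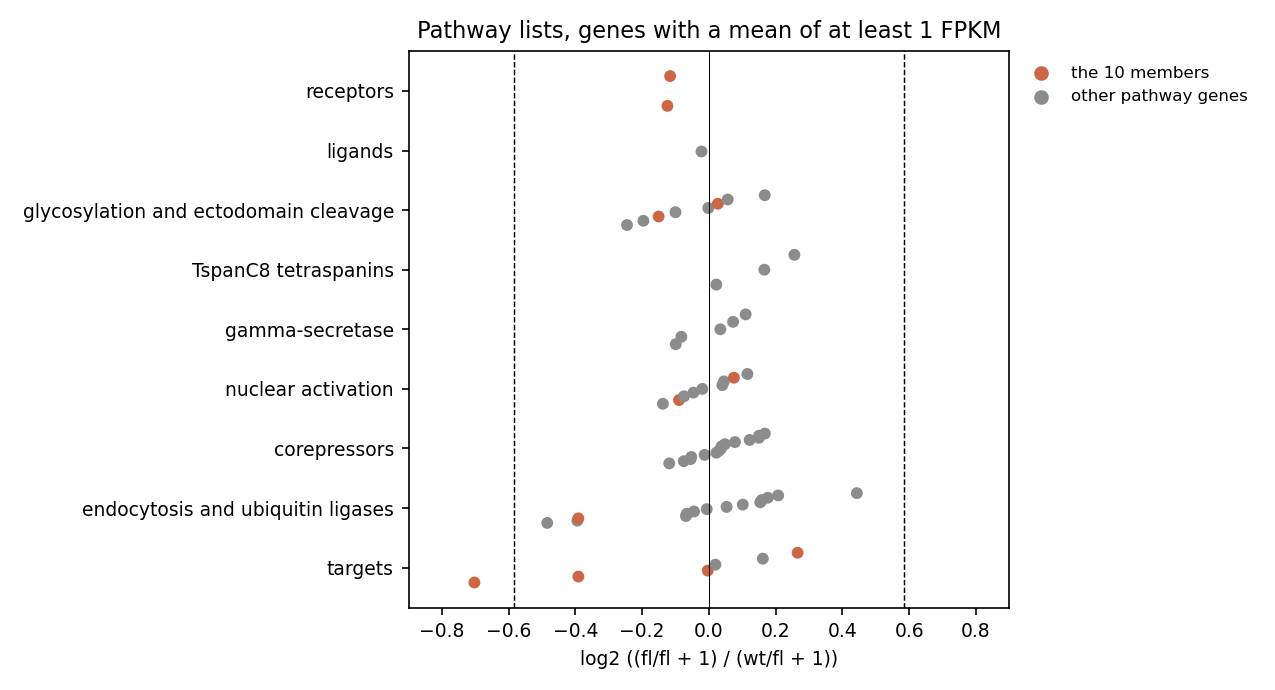
Log2 ratio of fl/fl over wt/fl for each expressed gene in the 9 pathway lists, with members in orange and other genes in gray, spread vertically within a list only to separate them. Dashed lines mark 1.5-fold, and apart from Hes5 at −0.70 the genes lie between −0.48 (Numb) and 0.44 (Nedd4).

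Because Rbpj binds DNA at the letters TGGGAA, the promoters of the members were searched for these letters on either strand. The windows, from RefSeq on GRCm38.p6, run from 250 bases before to 50 bases after a gene's start. There were 9 windows for 8 of the members, and none for Hes1 and Mfng. Matches were found for Hes5 and Rbpj. Hes5 held 2, and the windows of Rbpj held 2 and 1. The Rbpj windows overlap in part, and the match in the second is also counted in the first. Of all 32851 promoters, 25.6% held a match and 3.79% held 2 or more. The parts upstream of the start are shown for Hes5, the member past 1.5-fold, and for Nrarp, the target whose FPKM differed least, with the searched letters in capitals. The Hes5 stretch is chr4:154960673-154960922 on the plus strand, and the Nrarp stretch is chr2:25180508-25180757 on the plus strand. In the GENCODE annotation, 153 bases of the Hes5 stretch lie in exons of the noncoding gene Gm20421 on the opposite strand, and the Nrarp stretch overlaps no annotated exon.
Hes5: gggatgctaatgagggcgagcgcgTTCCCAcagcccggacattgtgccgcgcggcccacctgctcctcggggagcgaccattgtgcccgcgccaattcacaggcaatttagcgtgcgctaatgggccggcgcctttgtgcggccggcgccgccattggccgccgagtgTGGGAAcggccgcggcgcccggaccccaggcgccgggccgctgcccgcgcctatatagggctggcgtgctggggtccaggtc
Nrarp: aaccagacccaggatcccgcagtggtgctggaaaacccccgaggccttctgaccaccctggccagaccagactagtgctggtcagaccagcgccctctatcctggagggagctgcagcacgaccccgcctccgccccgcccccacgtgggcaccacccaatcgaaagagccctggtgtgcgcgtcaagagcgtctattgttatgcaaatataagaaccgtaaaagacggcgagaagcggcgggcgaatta
In Hes5 the matches begin 226 and 82 bases before the start, the first on the minus strand and the second on the plus strand. A match describes the letters and is not a binding site, and no match says only that these letters are absent from the window.

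The annotation may also bear on how the members were counted. The shares given here are of all exonic bases on GRCm38. The deposited table lists coding sequences, and the overlap with the stretches that were counted was not measured. Gm20421 overlaps 31.8% of the exonic bases of Hes5 on the opposite strand, and Gm38287 overlaps 79.4% of those of Nrarp. For Notch1 the shares were 7.50% with 0610009E02Rik and 2.91% with Gm13568, and for Maml1 the share was 2.44% with Gm26542. On the same strand, Gm42820 overlaps 5.02% of the exonic bases of Notch2. The library kits are not described as keeping the strand, so fragments of Hes5 or Nrarp and of their antisense neighbors cannot be told apart.

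The identity of the sorted cells was checked with marker lists. All 8 B cell markers were expressed and none was past 1.5-fold, and they summed to 5420 FPKM (wt/fl) and 5575 FPKM (fl/fl). Cd79b, a chain of the B cell receptor, was the most abundant, at 1638 FPKM and 1739 FPKM. The 4 follicular genes summed to 966 FPKM and 1107 FPKM. Fcer2a, the most abundant of them and the gene whose promoter drives Cre, was at 439 FPKM (wt/fl) and 588 FPKM (fl/fl). Since cells were sorted on CD23 and CD21, Fcer2a and Cr2 are not independent checks of identity.

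Of the 6 genes that are high in MZ B cells, 2 were past 1.5-fold and both were lower in fl/fl, while after upper quartile scaling 1 was, Plac8. Cd9 was at 4.61 FPKM (wt/fl) and 2.52 FPKM (fl/fl), a log2 ratio of −0.67. Plac8, which neutrophils and monocytes also express, was at 138 FPKM and 82.1 FPKM, a log2 ratio of −0.74. Cd1d1 was at 15.1 FPKM and 15.7 FPKM, and S1pr3 at 2.35 FPKM and 2.83 FPKM. The list summed to 526 FPKM (wt/fl) and 442 FPKM (fl/fl), and Cr2 had its highest mean FPKM over both genotypes. Mzb1, also abundant in plasma cells, was at 189 FPKM (wt/fl) and 140 FPKM (fl/fl).

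Markers of other cells differed between the genotypes along with Hes5 and Dtx1. The 8 neutrophil markers summed to 364 FPKM (wt/fl) and 64.6 FPKM (fl/fl), and all 6 that were expressed were past 1.5-fold and lower in fl/fl. S100a9 was the most abundant, at 175 FPKM and 34.5 FPKM, and Elane and Mpo, both below 0.2 FPKM in wt/fl, were listed at 0 in fl/fl. The 6 macrophage or monocyte markers summed to 91.6 FPKM and 58.8 FPKM, with Lyz2 the most abundant at 72.6 FPKM and 44.9 FPKM and the only one past 1.5-fold, which it did not reach after upper quartile scaling. The 5 plasma cell markers summed to 118 FPKM and 107 FPKM, and Igj, at 5.40 FPKM and 0.617 FPKM, and Sdc1, at 2.30 FPKM and 1.13 FPKM, were past 1.5-fold, Igj alone after upper quartile scaling. Irf4, which follicular B cells also express, was the most abundant of that list at 60.8 FPKM and 58.9 FPKM. Of 5 erythroid markers, 3 were found under their own names, all with a mean below 1 FPKM, and summed to 3.26 FPKM and 0.438 FPKM, with Alas2 at 1.28 FPKM and 0.295 FPKM having the highest mean and Slc4a1 at 1.29 FPKM and 0.0669 FPKM. The listed globin genes Hbb-b1 and Hba-a1 stood only under names shared with their near-identical copies, and other globin names were added after their values were seen. Of 7 globin names, 3 were more abundant than these markers and lower in fl/fl. Beta-s, a beta-globin name, was at 52.0 FPKM (wt/fl) and 7.08 FPKM (fl/fl), the shared Hba-a1 and Hba-a2 name at 25.8 FPKM and 3.05 FPKM, and the shared Hbb-b1 and Hbb-b2 name at 19.2 FPKM and 3.23 FPKM. The remaining names, Hba-x, Hbb-bh1, Hbb-bh2 and Hbb-y, were below 0.2 FPKM in both genotypes, and Hba-x and Hbb-bh1 were listed at 0 in wt/fl and above 0 in fl/fl. The sort kept B220+CD23+ cells, a gate meant to leave such other cells out. Their part in the values of Hes5 and Dtx1 was not tested.

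The remaining lists were lower or nearer in level between the genotypes. The 7 T cell markers summed to 24.4 FPKM (wt/fl) and 22.8 FPKM (fl/fl), with Lck the most abundant at 14.5 FPKM in both. Of the 5 that were expressed, 3 had a log2 ratio below 0 and 2 above 0, with a median of −0.12. The 4 dendritic cell markers summed to 2.18 FPKM and 1.62 FPKM, with Zbtb46 the most abundant at 0.772 FPKM and 0.498 FPKM. The 5 stromal or endothelial markers summed to 71.4 FPKM and 80.2 FPKM, nearly all of it from Pecam1, at 71.0 FPKM and 80.0 FPKM, which B cells also express, and Pdgfrb was listed at 0 in fl/fl.

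**Figure D4:**
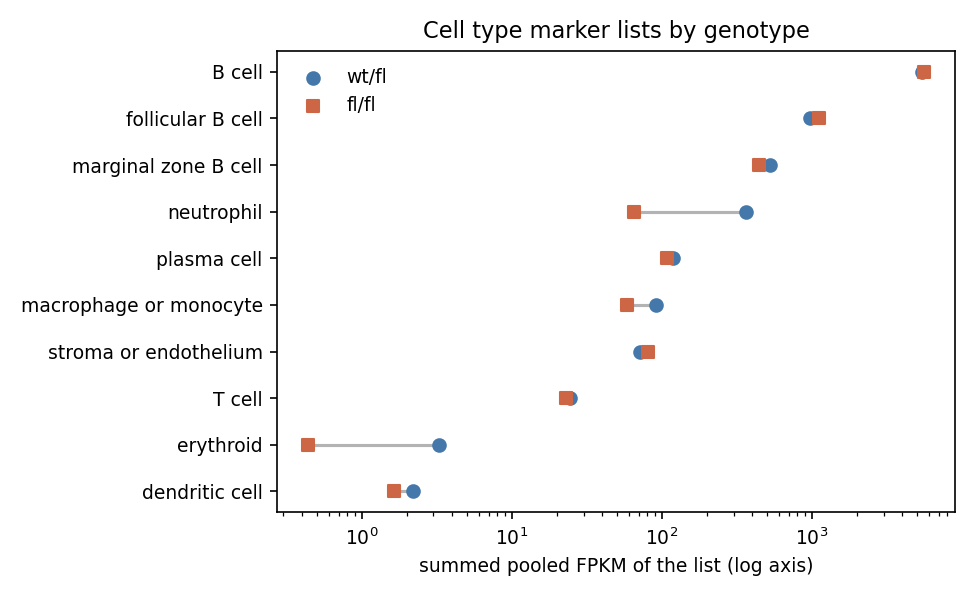
Summed FPKM of each cell type marker list on a log axis, with a circle for the pooled wt/fl value, a square for the pooled fl/fl value and a line joining them. The B cell list is near 5420 FPKM (wt/fl) and 5575 FPKM (fl/fl), and the neutrophil list is at 364 FPKM and 64.6 FPKM. The erythroid list is plotted without globin entries.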

How the data were processed

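RNA was isolated with TRIzol and a column kit, amplified with the Ovation RNA-Seq System V2 and made into libraries with the TruSeq Nano DNA kit. The FPKM values were computed by the authors, and the submitters' processing notes name Bowtie, TopHat and Cufflinks without versions, with the builds mm10 and GRCm38. The deposited table lists coding sequences with 1 FPKM for each genotype, headed HET (taken as wt/fl) and KO (taken as fl/fl), and how the samples were pooled is not given in the sources used here. Its columns of the authors' own comparison (fold change, test statistic, p-value, q-value, significance call) were not used. Among 18793 gene names matched to RefSeq on GRCm38.p6, 252 started within 10 bases of the position in the table (1.34%). The positions thus do not match the builds named in the notes, and the build behind the FPKM values is uncertain. For this reason no position from the table is printed.

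FPKM was summed over the entries of a gene name, after 44 entries whose names had turned into dates were left out. Log2 ratios used a pseudocount of 1 FPKM, which understates the change of genes at low levels. Genes needed a mean of at least 1 FPKM. All entries summed to 595296 FPKM (wt/fl) and 596105 FPKM (fl/fl). Depth is unknown: for genes with a single transcript, 36.0% (wt/fl) and 57.0% (fl/fl) of the lowest values were within 0.1 of a whole step, so whole reads were not recovered.

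Named genes were Myh9, the 10 members, in each pathway list those past 1.5-fold and the 3 most abundant, and in each marker list the most abundant and those listed at 0. Further genes were named after their values were seen. The members and lists were chosen with earlier results of these data known. Alternatives were pseudocounts, scaling, filters, folds, the highest entry and a narrower band of like level. The computation was run on a copy of the data with set folds and no noise. That run checks the code alone and says nothing about the reliability of the ratios. Python 3.11.15, pandas 2.3.3, numpy 2.4.6 and matplotlib 3.10.9 were used.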

Additional observations from a re-analysis of the deposited data

How the results depend on the processing

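The log2 ratios of the 10 members were recomputed with pseudocounts of 0.1, 0.5 and 0 FPKM, the highest entry, upper quartile scaling and centering on the median. Of 60 values, 58 kept their direction and side of 1.5-fold, and 2 changed direction without reaching 1.5-fold (Maml1 and Nrarp, both under upper quartile scaling). That count does not measure how stable the directions are. A pseudocount added to both values cannot change a direction, and the highest entry equals the sum for the 9 members with 1 entry. Centering shifted every ratio by only −0.0026. Direction was thus open to change mainly under upper quartile scaling. Hes5 ranged from −1.06 to −0.63, Dtx1 from −0.41 to −0.28 and Hes1 from 0.26 to 0.37. Percentiles among genes of like level moved by at most 1.28 when the band was narrowed to 1.5-fold.

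The Myh9 log2 ratio was −1.26 and −1.24 with pseudocounts of 0.1 and 0.5 FPKM. The median of the members was −0.11 with a pseudocount of 0.1, −0.11 with none, −0.11 after centering, −0.089 with a mean of at least 5 FPKM and 0.0065 after upper quartile scaling. The count of members past the fold was 0 with a mean of at least 5 FPKM, which leaves Hes5 out (against 1.20% of all genes), 2 at a fold midway between 1 and 1.5 (Hes5 and Dtx1, against 10.1% of all genes) and 0 at 2-fold (against 0.497%). Of the other pathway genes, 2 were past 1.5-fold with a pseudocount of 0.1 (against 4.20% of all genes), 2 with the highest entry (against 3.07%) and 2 with no pseudocount (against 4.56%). Counting with no pseudocount was chosen after seeing the data. At the fold midway between 1 and 1.5 there were 3 (Numb, Dtx4 and Nedd4).

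No paired analysis was possible because the deposited table holds 1 pooled value for each genotype, and for the same reason leaving out each replicate was not possible. Unknown depth limits what the low values of Hes5 and Nrarp can show.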
